A study of Mus musculus with 2 samples.

Results

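The cytosolic ribosomal protein genes were described in open chromatin of mouse T helper 2 (Th2) cells. Members were the protein-coding genes of GENCODE release M21 whose symbol starts with Rpl or Rps followed by a number, leaving out the Rps6k kinases. This rule gave 88 of 21938 protein-coding genes on the 21 main chromosomes of GRCm38 (mm10). They comprised 43 genes of the large subunit, 30 of the small subunit, 7 paralogs, 7 genes named as retrogenes or pseudogenes, and Rps19bp1. The last is not a ribosomal protein gene: its product binds Rps19, and its symbol meets the rule.

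The cytosolic ribosome translates nuclear-encoded mRNA, and each of its proteins is made in step with the others and with ribosomal RNA. In mammals most ribosomal protein mRNAs begin with a C followed by a run of pyrimidines, the terminal oligopyrimidine (TOP) motif, through which mTOR signalling controls their translation. Their genes are short, lack a canonical TATA box for the most part, and have given rise to many processed copies elsewhere in the genome. T cells enlarge and build ribosomes when activated.

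ATAC-seq, in which a transposase inserts adapters into accessible DNA, had been applied to 1 group of primary Th2 cells of the strain C57BL/6NJ. There were 2 biological replicates, no control or other cell type, and no treatment stated. The replicates were separate biosamples of the same donor record with no sex or age given. Whether different animals gave them is not stated, so their spread could be technical alone. The region names also carry the words ASTARR and insert, which no source used here explains, so it cannot be told whether a cloned library was sequenced in place of the cells' own fragments. Of the Th2 markers 9 of 10 had a promoter region, Il1rl1 being the exception, as did all 6 T cell markers matched and 1 of 9 markers of other cell types (Cd8b1, 3.08- and 5.20-fold in replicates 1 and 2).

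The replicates held 51557 and 60891 regions, of which 44058 joined regions were shared by both on the main chromosomes. The depth of sequencing is not stated. The median count at a summit recovered from the deposited values was 31 in replicate 1 and 37 in replicate 2. A gene was called open when a region of each list, overlapping by at least 1 bp and joined, was centred within 1 kb of any of its annotated start sites. Where there were several such regions the strongest was used. Fold enrichment is the authors' value at the summit over local background, and it was ranked within a list.

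Of the 88 members, 78 were open (88.6%), against 12491 of 21850 other protein-coding genes (57.2%). Over all 21938 genes 57.3% were called. All 73 genes that encode the proteins of the 2 subunits were open, as were 4 of 7 paralogs and Rps19bp1. None of the 7 genes named as retrogenes or pseudogenes was open. The calls were the same in each replicate taken alone, and no member without a shared region had a promoter region in either list. For comparison, 78 of 78 mitochondrial ribosomal protein genes and 38 of 40 proteasome genes were open.

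The 10 members that were not open fell into 2 kinds. The first were 3 paralogs with tissue-restricted roles: Rpl3l of striated muscle, and Rpl10l and Rpl39l of the testis. The nearest shared region to Rpl3l (chr17:24727820-24736143) was centred 3.89 kb from its start, had fold enrichments of 4.51 and 5.35, and held the start of Ndufb10. Its neighbour Rps2, whose start lies 7.71 kb away on the same strand, was open with 7.12 and 9.59. For Rpl39l (chr16:10170226-10174911) the nearest shared region was 117 kb away, and for the single-exon Rpl10l (chr12:66283379-66284401) 775 kb away. The CpG content of these paralogs differed: the observed-to-expected CpG ratio from 250 bases before to 50 after the principal start was 0.836 at Rpl39l and 0.0893 at Rpl3l, against a median of 0.855 at the open members.

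The other 7 were copies. The edge of the rule fell among them: the region nearest the start of Rpl9-ps6, at chr19:32464763-32465747 with 10.5 and 9.72, was centred 1.32 kb away, just outside the limit. Just inside it were Rpl36 at 0.683 kb, Rpl7 at 0.668 kb and Rpl10a at 0.584 kb. The nearest regions of Rps27rt and Rpl9-ps1 were centred 4.13 kb and 6.21 kb away, that of Rps27rt at the start of Osbpl10. Those of Rpl10-ps3 (11.3 kb), Rps12-ps3 (12.9 kb), Rpl36-ps4 (28.2 kb) and Rpl36a-ps1 (38.3 kb) lay farther off.

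These copies carried the transcribed sequence of their namesakes but not the sequence upstream of it. The longest identical run between transcripts was 740 bases for Rpl10-ps3 and Rpl10, 494 for Rps12-ps3 and Rps12, 402 for Rpl9-ps6 and Rpl9, 341 for Rps27rt and Rps27, and 281 for Rpl36a-ps1 and Rpl36a. It was 54 bases for Rpl9-ps1 and Rpl9 and 47 for Rpl36-ps4 and Rpl36. In the 250 bases upstream of the principal start the longest identical run was 6 to 10 bases in all 7 pairs. Reads from a shared run cannot be told apart, and how reads that map to several places were treated is not given in the sources used here, so signal over exons of members with copies is uncertain. The start sites of Rps27rt and Rps27 show where the shared sequence begins. Each line runs from 10 bases before the principal start through the 20 bases that begin with it (GRCm38, Rps27rt at chr9:114982720-114982749, Rps27 at chr3:90213632-90213661, both minus strand), with a pyrimidine run that holds the start in capitals:
Rps27rt: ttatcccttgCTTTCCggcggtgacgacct
Rps27: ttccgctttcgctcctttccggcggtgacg

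The fold enrichment at the open members spanned a wide range. The median was 8.59 in replicate 1 (25th to 75th percentile 6.85 to 10.9) and 10.02 in replicate 2 (8.30 to 12.2), against 9.68 (6.95 to 12.1) and 10.9 (7.82 to 13.6) at the other open genes. The mean of the 2 medians was 9.30 ± 1.01 at the members and 10.3 ± 0.876 at the other genes (SD, n = 2 each). Both sets come from the same libraries and share the shift between them. The median of the members was the lower in each replicate, and this difference was not tested. In both replicates 45 of 78 members lay below the median of the other genes, 10 above their 75th percentile, 13 below their 25th and 1 above their 90th. Mitochondrial ribosomal protein genes had medians of 10.4 and 11.7, and proteasome genes 11.3 and 12.8. Large subunit genes had medians of 8.27 and 9.48, small subunit genes 8.59 and 10.5, and the 4 open paralogs 12.2 and 14.0.

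**Figure D1:**
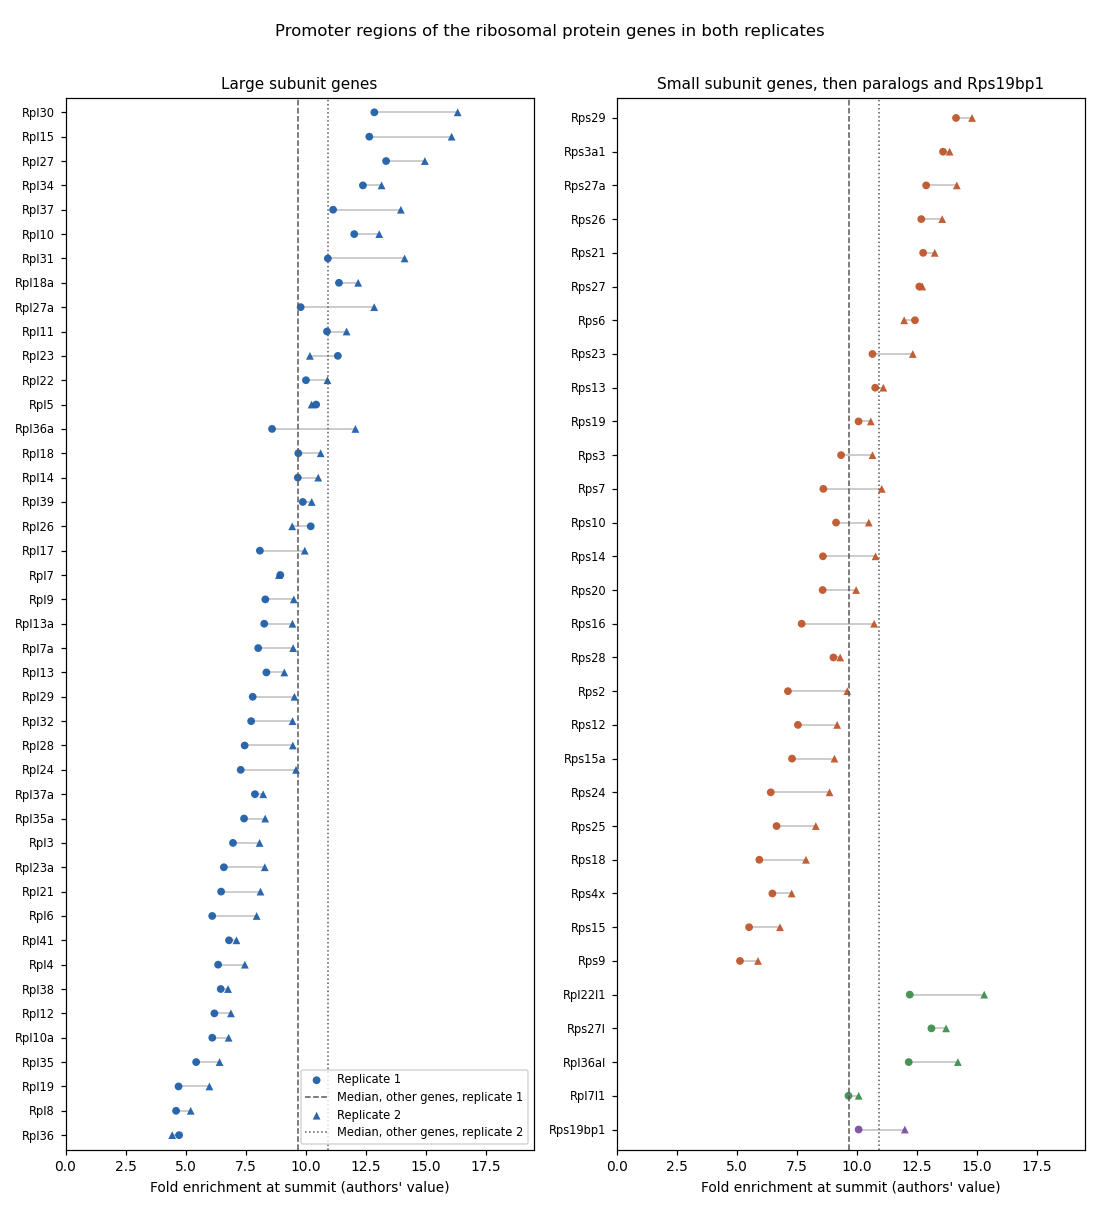
Fold enrichment at the summit of the promoter region (x axis, the authors' value) of 74 of the 78 open members (y axis), with circles for replicate 1 and triangles for replicate 2, joined by a line. The dashed and dotted lines mark the medians of the other open genes, 9.68 in replicate 1 and 10.9 in replicate 2. The members drawn reach from Rpl36 at 4.73 and 4.44 to Rpl30 at 12.9 and 16.3, the highest value drawn for replicate 2.

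Among the strongest members was the large subunit protein Rpl30, at chr15:34442726-34444383. Its fold enrichment was 12.9 in replicate 1 (95% exact Poisson interval 10.7 to 15.3) and 16.3 in replicate 2 (14.2 to 18.7), or 14.6 ± 2.45 (SD, n = 2). These values exceeded those of 82.1% and 94.7% of other open genes. The zinc finger protein Rps29 (chr12:69158497-69160009) had 14.1 and 14.8. Rpl15 (chr14:18270398-18271977), a large subunit protein mutated in some human Diamond-Blackfan anaemia, had 12.7 and 16.1, and Rpl27 (chr11:101442090-101443217) had 13.3 and 15.0. In both replicates these 4 lay above the median of the other genes, which largely follows from their choice by these same values.

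By the mean of both replicates the weakest member was Rpl36 (chr17:56613240-56614958), a large subunit protein, with 4.73 (3.79 to 5.83) and 4.44 (3.60 to 5.42), or 4.58 ± 0.204 (SD, n = 2). Rpl8 (chr15:76903853-76904704), which lies next to the peptidyl transferase centre, had 4.60 and 5.21, the lowest value in replicate 1, and Rpl19 (chr11:98026389-98027536), which contacts the small subunit, had 4.71 and 5.99. Rps9 (chr7:3703670-3704547), at the mRNA entry channel, had 5.12 and 5.88. Rpl35 (chr2:39004578-39005819), near the end of the exit tunnel, had 5.44 and 6.41.

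The lower median fold enrichment of the members did not come with a lower median count, although at single members both could be low. The fold enrichment divides the summit pileup by local background, and both were recovered from the deposited fold and p-value under a Poisson model. The median pileup was 91 and 133.5 at members, against 83 and 118 at other open genes. The median background was 9.37 and 11.7 at members, against 7.56 and 9.60 at other open genes. In replicates 1 and 2, 61 and 62 of 78 members had a background above the median of the other genes, and 48 and 46 a pileup above it. Rpl13a, which in human cells is released from the ribosome to silence inflammatory mRNAs, had the highest pileups of the members, 219 and 306. They exceeded 96.9% and 97.0% of other open genes, yet its background of 25.6 and 31.5 left fold enrichments of 8.27 and 9.45, above 36.3% and 37.0% of them. Rpl36 likewise had a background above that of 95.1% and 93.1% of other open genes.

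**Figure D2:**
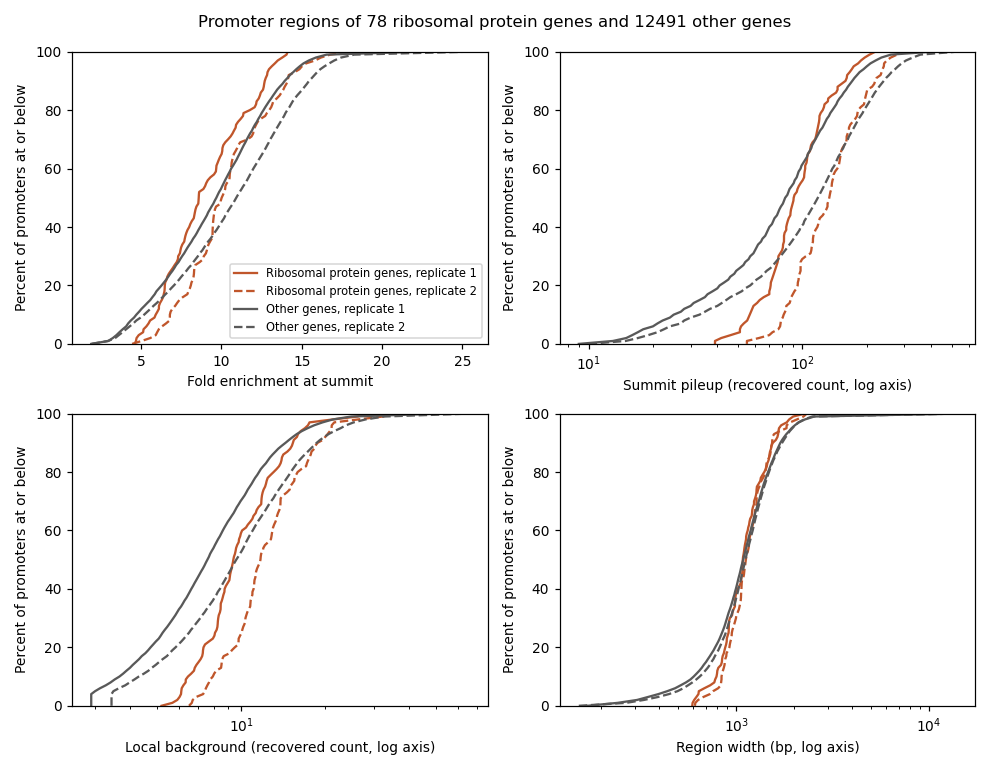
Cumulative percent of promoters (y axis) at or below each fold enrichment, recovered summit pileup, recovered local background (both counts, log axis) and region width (bp, log axis), for the 78 open members and 12491 other open genes in each replicate. The fold enrichment curves of members and other genes cross. Members have the lower medians (8.59 and 10.02, against 9.68 and 10.9) but the higher 10th percentiles (5.91 and 6.79, against 4.70 and 5.19). In background, members lie to the right (9.37 and 11.7, against 7.56 and 9.60). The width curves cross near their medians, members having the higher 10th percentiles (791.9 and 841 bp, against 603 and 648 bp). The 90th percentiles of width are lower at members (1551.4 and 1539.2 bp, against 1698 and 1734 bp).

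Members are described next by the roles of their proteins. Rpl5 and Rpl11, which bind ribosomal RNA as part of the small ribonucleoprotein of the large subunit and restrain MDM2 when free, had 10.4 and 10.2, and 10.9 and 11.7. Among the proteins that line the exit tunnel, Rpl4 had 6.35 and 7.47, Rpl17 8.09 and 9.96, and Rpl39 9.88 and 10.3. At the decoding site Rps23 had 10.6 and 12.3, while Rps15 had 5.50 and 6.79. Rps2 and Rps3, at the entry of the mRNA, had 7.12 and 9.59, and 9.34 and 10.6. The 12 members known as Diamond-Blackfan anaemia genes in humans, a list picked for that role, included Rps24 at 6.41 and 8.85, Rps19 at 10.1 and 10.6, and Rps29 at 14.1 and 14.8.

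Members with roles in signalling or in T cells come next, all of them among the open members already counted. Rps6, the classical substrate of the S6 kinases, had 12.4 and 12.0. Rps27a, made as a fusion with ubiquitin, had 12.9 and 14.2. Rpl22, which mouse αβ T cell development requires, had 10.01 and 10.9, and its paralog Rpl22l1 had 12.2 and 15.3. Rps27l, a p53 target in human cells, had 13.1 and 13.7, close to the 12.6 and 12.7 of Rps27. The 4 members on the X chromosome ranged from Rps4x at 6.47 and 7.28 to Rpl10 at 12.0 and 13.1, with Rpl39 and Rpl36a (8.60 and 12.1) between.

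The replicates ranked the members alike. Spearman's rho of the fold enrichment between replicates was 0.931 over the 78 members and 0.938 over the 12491 other open genes, a description across genes that share 2 libraries. Replicate 2 was higher at 72 of 78 members (92.3%), against 80.9% of other open genes, with a median ratio to replicate 1 of 1.14 (5th to 95th percentile 0.979 to 1.35), against 1.11 (0.880 to 1.41) at other open genes. Among the largest ratios, Rpl36a had 1.40 and Rps16, whose tail reaches the peptidyl-tRNA, 1.39. The ratio was lowest at Rpl23 (0.897), Rpl26 (0.924) and Rpl36 (0.939). The Poisson intervals of the replicates overlapped at all 78 members, that is, 0 members had intervals that lay apart. No such count over the other open genes is given here, so it cannot be told whether members differ from them in this.

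**Figure D3:**
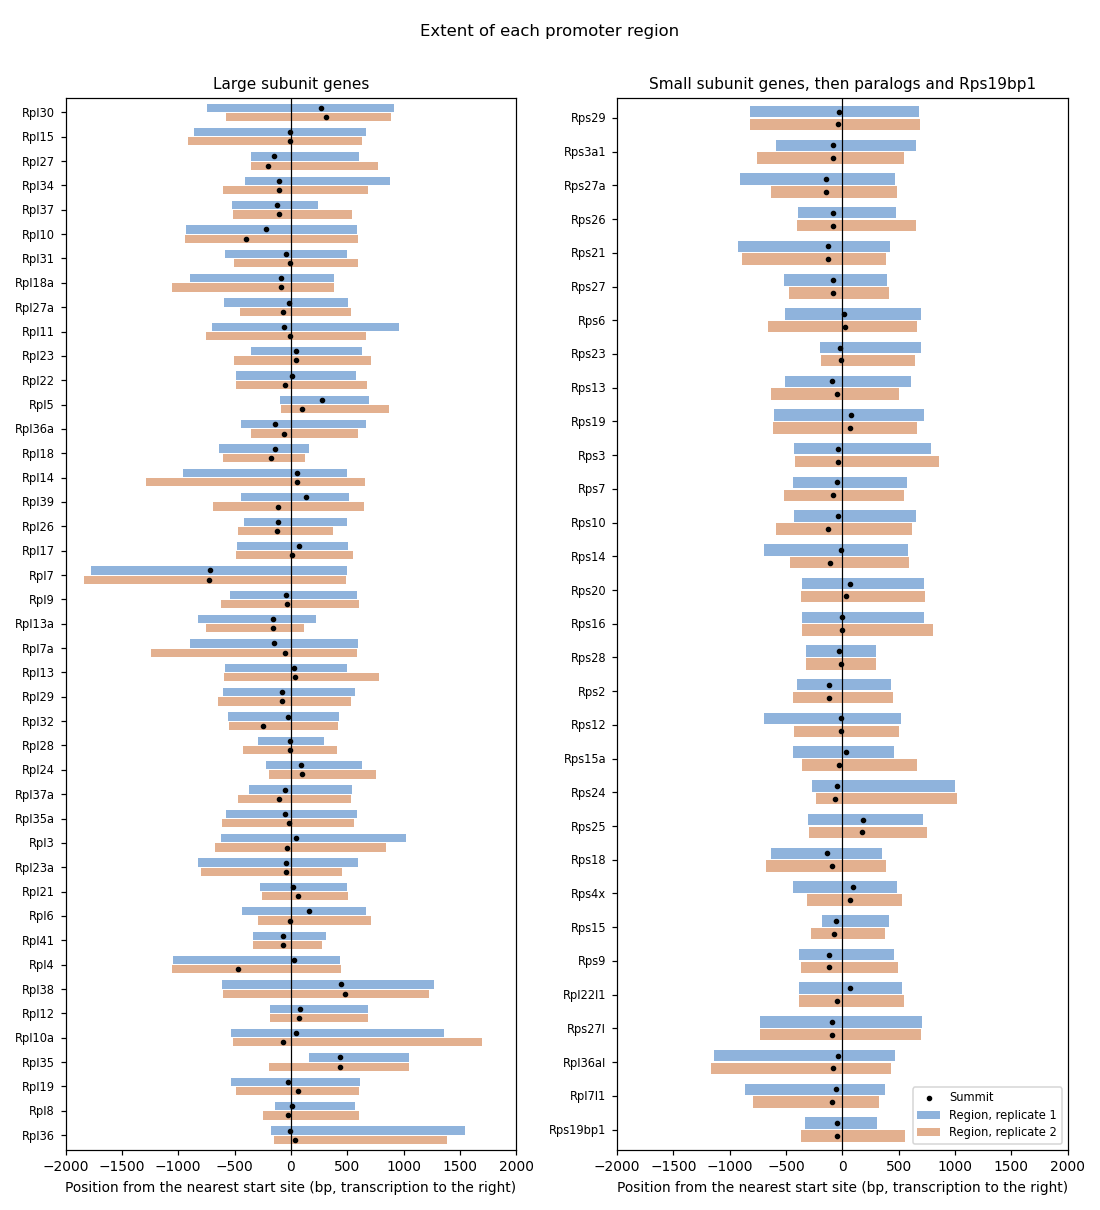
Extent of the promoter region of 74 of the 78 open members in replicate 1 (blue) and replicate 2 (orange) relative to the annotated start nearest to the region's centre (x axis, bp, transcription to the right), with the summit as a dot. Nearly all regions straddle the start, and that of Rpl7 is widest, 2278 bp in replicate 1 and 2326 bp in replicate 2, mostly upstream.

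The regions had median widths close to those of other genes, 1084 and 1124.5 bp at members, against 1090 and 1118 bp at other open genes. Their spread was narrower. The 10th percentiles were 791.9 and 841 bp at members, against 603 and 648 bp, and the 90th 1551.4 and 1539.2 bp, against 1698 and 1734 bp. The joined region covered the principal annotated start of 77 of the 78 open members and some annotated start of all 78. It reached a median of 530.5 bp upstream and 620 bp into the gene. The genes themselves were short, with a median of 3266 bp, against 24403 bp for other open genes. The region therefore covered a median of 20.9% of a member, over 25% of the gene in 25 members and the whole of Rpl36. The widest regions belonged to Rpl7 (2278 and 2326 bp), Rpl10a, a protein of the ribosome's mobile stalk (1889 and 2211 bp), and Rpl38, which mouse skeletal patterning requires (1883 and 1826 bp). The narrowest were those of Rps28 (616 bp in both), Rps15 (596 and 653 bp) and Rpl41, the shortest of the ribosomal proteins (642 and 612 bp).

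Summits lay near the start. The median distance from the nearest annotated start was 54 and 61.5 bp at members, against 81 and 78 bp at other open genes. Within 100 bp of a start lay the summits of 58 and 57 of 78 members (74.4% and 73.1%), against 56.7% and 58.1% of other open genes. Mitochondrial ribosomal protein genes had median distances of 58 and 65 bp, with 67.9% and 71.8% of summits within 100 bp. Open proteasome genes had 60.5 and 58.5 bp, with 76.3% and 71.1%. Summits this near the start were thus not particular to the members. Of the members 43 had the summit upstream in both replicates and 21 downstream in both. Taken by replicate, summits lay upstream at 60.3% and 67.9% of members, against 57.6% and 58.5% of other open genes. The summits of the 2 replicates were a median of 23.5 bp apart. In replicate 1, 38 summits lay outside the gene on its upstream side, 30 in an exon and 10 in an intron, and in replicate 2 the counts were 41, 28 and 9. The farthest were those of Rpl7, upstream at −716 and −731 bp, of Rpl38, 446 and 479 bp downstream in an intron, and of Rpl35, 440 and 437 bp downstream in an exon.

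**Figure D4:**
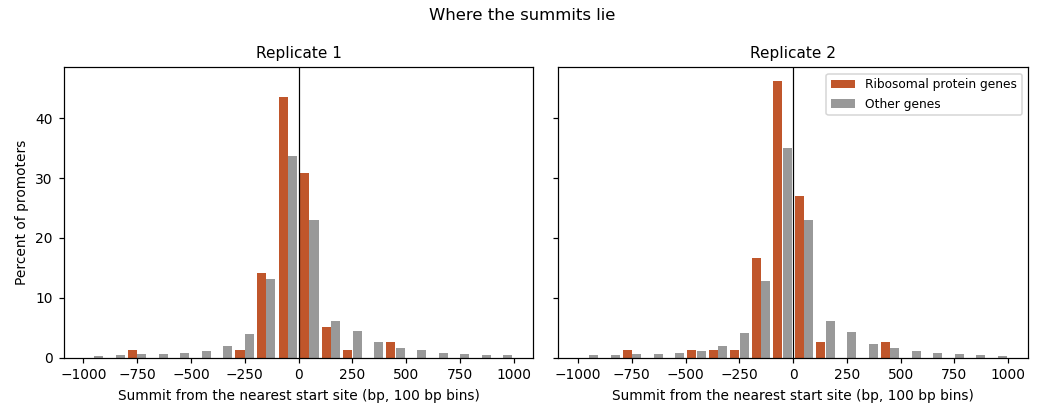
Percent of promoters (y axis) by distance of the summit from the nearest annotated start (x axis, 100 bp bins, negative upstream) in each replicate, for the 78 open members and the other open genes. In the 100 bp just upstream lay 43.6% and 46.2% of member summits, against 33.6% and 35.0% of the summits of other open genes.

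Several members share their open region with another gene. In 15 the region also held the annotated start of another protein-coding gene, on the opposite strand in 14 (17.9%, against 16.5% of other open genes). These opposite partners were Lrsam1 (Rpl12), Nkiras1 (Rpl15), Sphk2 (Rpl18), Iqcg (Rpl35a), Mgat2 (Rpl36al), Zwilch (Rpl4), Rdh10 (Rpl7), Med22 (Rpl7a), Lias (Rpl9), Vps52 (Rps18), Trappc4 (Rps25), Rab13 (Rps27), Clhc1 (Rps27a) and Ndufa7 (Rps28). Rps10 shared its region with the readthrough gene RPS10-NUDT3 on the same strand. To which gene of such a pair the signal belongs cannot be told. The 15 had median fold enrichments of 8.94 and 9.48, and the other 63 had 8.58 and 10.2.

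Of the 78 open members, Rpl18, Rps15 and Rps14 had more than 1 promoter region. Rpl18 had chr7:45714822-45715618 with 9.69 and 10.6, about an alternative start, and chr7:45717688-45718517 with 4.80 and 5.79 at its principal start, and both regions also held a start of Sphk2. At Rps15 the weaker region had 2.13 and 2.15. Rps14 had 8.58 and 10.8 at its principal start and 5.81 and 6.10 at an upstream start, with summits −27347 and −27341 bp from the principal start. Shared regions in the gene body outside promoters were held by 6 members, Rps14 included, and among them was Rpl11, with 11.4 and 10.2 at chr4:136030961-136031926, which holds no annotated protein-coding start.

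Small nucleolar RNAs, which guide modification of ribosomal RNA and are released from introns, lay within 28 of the 78 open members (35.9%, 54 such RNAs), against 1.56% of other open genes. Rpl4 held 5 and Rpl13a held 4. The 28 hosts had median fold enrichments of 8.32 and 9.96, and the other 50 open members had 8.98 and 10.3, a lower median at the hosts in both replicates that was not tested.

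The annotated starts carried TOP motifs more often than those of other genes. A C followed by at least 4 pyrimidines stood exactly at an annotated start of 20 of 78 open members (25.6%), against 4.44% of other open genes, and of 21 of all 88 members (23.9%), the addition being Rps27rt. Within 10 bp of an annotated start it was found in 52 of 78 (66.7%), against 45.8%. The 78 members are not independent of the literature that defined the motif on them, and annotated starts need not be the starts used in Th2 cells. On the strand of transcription the start windows of 6 open members with the motif and of 2 without, Rps29 and Rps6, show the contrast. They cover 10 bases before the principal start and the 20 that begin with it (GRCm38), with the pyrimidine run that holds the start in capitals:
Rpl32: gccgccgCCTCTTCCTTCTTCCTCggcgct
Rps24: gtgagcggTCCTCTTTTCCTCCTCTCCagc
Rps2: gcgCCTCCCTCTTCTTCTTCTTCgggagaa
Rpl30: ggagCTCCTTCCTTTCTCgctccccggcca
Rpl4: caagTCTTTCCTTTTCCTgtgggagcagcc
Rpl36: cggtgccgTTCTTCCTgtcccggccgccat
Rps29: gcggaccaatgttgtcgcacggcgtacgcg
Rps6: ctgttctcgcgagaacttagagcgctatgt

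The lines lie at chr6:115808728-115808757, minus strand (Rpl32), chr14:24490708-24490737, plus strand (Rps24), chr17:24720100-24720129, plus strand (Rps2), chr15:34443203-34443232, minus strand (Rpl30), chr9:64173365-64173394, plus strand (Rpl4), chr17:56613406-56613435, plus strand (Rpl36), chr12:69159167-69159196, minus strand (Rps29) and chr4:86857393-86857422, minus strand (Rps6). From the start base on, the run was 17 bases long in Rps24, 14 in Rpl32, 13 in Rps2, 8 in Rpl30 and Rpl4, and 6 in Rpl36. Those without the motif begin with a purine. A purine also stood at the principal start of 44 of the 76 open members off chromosome 18, against 25 with C and 7 with T. Rpl30 and Rpl36, with the motif, were among the 5 strongest and the 5 weakest members. The 20 members with the motif had median fold enrichments of 7.84 and 9.49, and the other 58 had 8.77 and 10.2. The median was lower with the motif in both replicates, and this difference was not tested.

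**Figure D5:**
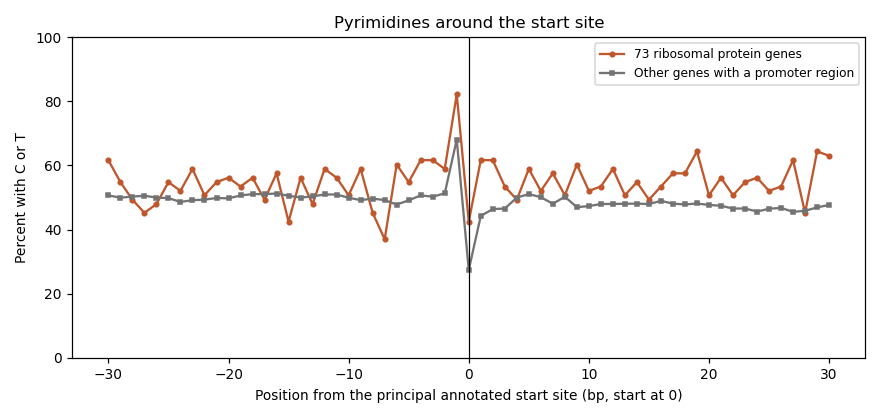
Percent of genes with C or T (y axis) at each base from 30 before to 30 after the principal annotated start (x axis, start at 0), for the 73 genes of the 2 subunits and for the other open genes. The members stood higher at the base before the start (82.2%, against 68.1%), at the start (42.5%, against 27.4%) and at the next base (61.6%, against 44.2%). Gaps of similar size also lay away from the start, as at base 19 (64.4%, against 48.1%) and base 29 (64.4%, against 46.9%). At some bases the members stood lower, as at −7 (37.0%, against 49.2%).

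Beyond the start, the promoter windows (250 bases before to 50 after the principal start) of the open members were poorer in G and C, with a median of 56.2%, against 61.0% at other open genes, and had a higher observed-to-expected CpG ratio, 0.855 against 0.768. Mitochondrial ribosomal protein genes had 57.5% and a ratio of 0.822, and open proteasome genes 56% and 0.793. Neither trait was thus particular to the members. Letters bound by ETS factors (CCGGAAG, either strand) occurred in 25 of 78 members (32.1%), against 17.6% of other open genes. Those of Sp1 (GGGCGG) occurred in 55.1%, against 65.4%, and those of NF-Y (CCAAT) in 28.2%, against 37.6%. The letters of YY1 (AAGATGGC) occurred in 7.69%, against 4.63%, those of the E-box (CACGTG) in 11.5%, against 10%, and the NRF1 palindrome in 2.56%, against 1.94%. The TATA letters (TATAAA) occurred in 10.3%, against 6.97%. The 10 TATA matches of the members had a median centre 15.5 bases after the start (25th to 75th percentile −20.75 to 39). At other open genes the median was −134.5 (−194.75 to −29.5). The search windows were not matched on base composition, on which such counts depend, the ETS and Sp1 letters can overlap, and a match is not a bound site. Of the mitochondrial ribosomal protein genes 37.2% and of the open proteasome genes 31.6% held the ETS letters.

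The promoters of the strong member Rpl30, of the S6 kinase substrate Rps6, of Rpl37, with the ETS letters before and after its start, and of the weak member Rpl8 are shown as examples. Each runs from 100 bases before the principal start through the 20 that begin with it, on the strand of transcription (GRCm38, Rpl30 at chr15:34443203-34443322, minus strand, Rps6 at chr4:86857393-86857512, minus strand, Rpl37 at chr15:5116545-5116664, plus strand and Rpl8 at chr15:76903978-76904097, plus strand), with matches to the letters above in capitals:
Rpl30: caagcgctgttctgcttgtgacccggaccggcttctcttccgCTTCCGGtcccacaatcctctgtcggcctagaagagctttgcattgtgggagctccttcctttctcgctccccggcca
Rps6: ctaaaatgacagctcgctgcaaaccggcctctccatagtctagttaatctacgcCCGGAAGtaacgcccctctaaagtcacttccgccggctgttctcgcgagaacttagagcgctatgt
Rpl37: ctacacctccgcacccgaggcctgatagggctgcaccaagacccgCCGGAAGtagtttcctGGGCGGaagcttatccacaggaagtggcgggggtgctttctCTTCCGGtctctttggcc
Rpl8: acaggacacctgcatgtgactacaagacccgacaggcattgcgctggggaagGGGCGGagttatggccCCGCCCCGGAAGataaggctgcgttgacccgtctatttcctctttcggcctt

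In Rpl30 and Rps6 the matches were to ETS, in Rpl37 to ETS (both strands) and Sp1, and in Rpl8 to Sp1 (both strands) and ETS, where the ETS match overlaps an Sp1 match. Rpl30 and Rpl8, picked after values were seen, both held the ETS letters, with fold enrichments of 12.9 and 16.3 in Rpl30 and 4.60 and 5.21 in Rpl8. Whether fold enrichment goes with the ETS letters was not tested.

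Genes that act with the members were nearly all open. Of the 7 ribosomal proteins under other names all were open, with medians of 8.72 and 10.4, among them Rplp0 of the stalk (12.1 and 14.0) and Fau (4.80 and 6.91), made as a fusion with a ubiquitin-like protein. The 14 translation factors and related genes with TOP mRNAs were open, with medians of 10.2 and 12.4, from Eif3f of the initiation complex (15.0 and 15.6) to the elongation factor Eef2 (3.86 and 4.84). All 18 ribosome assembly factors were open, with medians of 11.6 and 13.2, from Bms1 (15.6 and 15.4) to Tsr1 (6.66 and 7.38), and so were 8 genes of RNA polymerase I transcription, from Rrn3 (12.0 and 12.5) to Ubtf (5.75 and 5.86). The 13 genes that control ribosomal protein genes or mRNAs were open, from the S6 kinase Rps6kb1 (14.5 and 15.5) to Myc (6.32 and 6.75). Of the 10 Rps6k kinases left out by the rule 9 were open, the exception being Rps6ka6. At these lists no test was made, and over all genes 57.3% were called.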

How the data were processed

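The deposited files were 1 list of open regions per library, made by the authors from 1 alignment of that library on mm10, per the file headers, so regions were called per library. Which aligner, peak caller and read filters were used is not given in the sources used here. Every region has the authors' fold enrichment, a ratio of summit count over local background, its −log10 p and −log10 q as deposited, a deposited score that was not used, and a summit position.

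Regions overlapping by at least 1 bp between the lists were joined. Promoters lay within 1 kb of an annotated start (GENCODE M21 basic, GRCm38). Pileup and background were solved from fold and p under a Poisson model with a pseudocount of 1. Whole-number pileups returned the deposited p within 0.001 for 51555 of 51557 and 60885 of 60891 regions. Intervals hold the background fixed, and they and the pileups cover counting error only. The principal start was chosen by APPRIS rank, then transcript support level, then transcript number. Sequences were read from the GRCm38 genome. Python 3.11.15, pandas 2.3.3, SciPy 1.17.1 and pysam 0.24.0 were used, and the joining and the pileup recovery were checked on simulated data.

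With 1 group of 2 libraries no test between groups was possible, and no test of the gene set was made. Members and lists were chosen with earlier results of these data known. Named genes were the members without a region, the 5 strongest and weakest, the 3 widest, narrowest and farthest from a start, the 3 highest and lowest ratios between replicates, members with a stated role, and the extremes of each list. A few genes covered by this rule are not reported here and were left out of the plots by member. Rpl13a was also described for its pileup, and members sharing a region, holding several regions or shown as sequences were chosen after values were seen. Alternatives covered the replicates, the window, the start sites, the authors' threshold and the overlap.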

Additional observations from a re-analysis of the deposited data

How the results depend on the processing

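Of 40 alternatives, 25 moved a value by less than its error and 15 moved it further. Each value is a share, median or ratio taken singly, so the alternatives do not address the direction of a difference between members and other genes. The main fold enrichment, width and summit distance are means of the 2 replicate medians. Leaving out a replicate therefore had to stay within the SD of those medians. The share of members that were open stayed between 85.2% and 89.8% under the alternatives for replicates, window, start sites, threshold and overlap. A window of 0.5 kb lost Rpl10a, Rpl36 and Rpl7, the gene's 5′ end alone lost Rpl17, Rps10 and Rps2, and any overlap with the window or a window of 2.5 kb gained Rpl9-ps6. Without paralogs, copies and Rps19bp1 the share was 100%. The share of other genes, 57.2%, was 58.5% to 59.2% without a replicate, 58.2% by any overlap, 56.4% by summits, 53.05% and 60.04% with windows of 0.5 and 2.5 kb, 53.8% at the 5′ end alone, 51.0% at −log10 q of at least 10, and 55.2% where at least 50% of both regions had to overlap. Leaving out a replicate gave median fold enrichments of 8.59 to 10.02, widths of 1084 to 1124.5 bp and summit distances of 54 to 61.5 bp. The median summit distance, 57.75 bp, was 73.75 bp from the 5′ end alone and 64.25 bp from the principal start alone. The ratio between replicates was 1.40 on pileups instead of 1.14 on fold, which depth enters. The share with a TOP motif, 23.9%, was 67.0% within 10 bp of a start, 12.5% at the principal start alone and 20.6% at RefSeq starts (13 of the 63 members listed there, against 2.64% of other genes). The alternatives on the principal start and on RefSeq starts were chosen after seeing the data. No paired analysis was possible because there was 1 group. The cause of these shifts was not tested. Counting error widens intervals where counts are low: at Rps4x, with pileups of 39 and 55, the fold enrichment was 6.47 (4.65 to 8.79) and 7.28 (5.51 to 9.43).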

Other observations

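Processed pseudogenes named after ribosomal proteins gave a view of the same transcribed sequences away from their genes. Of 290 such pseudogenes 6 had a shared region within 1 kb of their start (2.07%), against 234 of 9946 other processed pseudogenes (2.35%). Leaving out those within 2 kb of a protein-coding start, 5 of 287 remained (1.74%), against 2.10%. The 6, named after their values were seen, were Rpl29-ps2, Rps15a-ps5, Rpl21-ps8, Rpl21-ps10, Rpl34-ps1 and Rpl10-ps6. The strongest was Rpl29-ps2, with fold enrichments of 14.3 and 16.6, whose start lies 0.16 kb from that of a protein-coding gene. Rps15a-ps5, 78.9 kb from the nearest protein-coding start, had 6.56 and 11.9.

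The genes of the 73 subunit proteins lay on 19 chromosomes. Chromosome 7 held 13 of them, among them the weak member Rps9 (5.12 and 5.88).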
